A study of Homo sapiens with 8 samples.

Results

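H3K9ac, acetylation of lysine 9 of histone H3, was examined at the promoters of non-coding RNA genes in MIA PaCa-2 cells, an established pancreatic cancer cell line. The regions were all peaks of 2 H3K9ac lists whose nearest gene was typed ncRNA, snoRNA or snRNA and whose centre lay within 1000 bp of that gene's transcription start site (TSS). The small nucleolar RNA host genes named SNHG, and GAS5 and ZFAS1, were left out. This gave 892 of 20326 stromal peaks (4.39%) and 385 of 7141 astromal peaks (5.39%). They carried the names of 798 of the 10822 genes with a promoter peak in either list.

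Both conditions were spheroids of the same cells in a hyaluronan hydrogel of Glycosil and Extralink, in medium with 2% serum after a first day in 10% serum. In the stromal condition the gel contained Gelin-S, which is derived from collagen, and the medium had been conditioned by immortalized myofibroblasts grown from a resected human pancreatic tumour. In the astromal condition the gel lacked Gelin-S and the medium was plain DMEM. There was 1 chromatin immunoprecipitation library per mark and condition, so no difference has a replicate check, no p-value is given, and every interval is an exact 95% interval of counting error alone.

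Non-coding RNA genes fall into several kinds. LINC genes make long RNAs that lie between coding genes. Antisense genes, named with -AS, lie opposite another gene and often start at its promoter. MicroRNA (miRNA) genes, small nucleolar RNA (snoRNA) genes and the small nuclear RNA (snRNA) genes make short RNAs that silence messages, guide RNA modification and splice introns. Acetylation of H3K9 and H3K27 is laid down around active start sites, where it is read by proteins that help transcription to begin and elongate. Many snoRNAs are cut from introns of host genes. The mark says where a promoter is active, not how much of a stable RNA is made.

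A level here means the number of tags in a peak, scaled by the authors to a library of 10000000 tags (normalised tags). The H3K9ac libraries held an estimated 7569604 stromal and 3925277 astromal tags, and their peaks took up 5.81% and 1.76% of these. A median peak rested on 20 stromal and 9 astromal tags. Absence from a list is not absence of the mark, and the part of depth in the listing was not tested. In such bulk samples, fewer marked cells and less mark per cell cannot be told apart. The H3K27ac libraries were deeper and more alike, with 17190695 stromal and 13453902 astromal tags. Promoter H3K9ac was listed at 4 of 4 genes marking the carcinoma line in the stromal list (KRT8, KRT18, KRT19, VIM) and at 1 of 4, KRT18, in the astromal list. Of 7 fibroblast markers, 3 had a stromal promoter peak (COL1A1 at 17.2, COL1A2 at 30.4, ACTA2 at 29 normalised tags) and 0 an astromal one; DCN, LUM, FAP and PDGFRB had none in either list. None of 6 leukocyte and endothelial markers had a peak in either list. Conditioned medium, not fibroblasts, was added to the stromal gels, and the part of these marker peaks in the results was not tested.

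The promoters that open each class of results are shown here, since they are the strongest shared, stromal-only or astromal-only members of their class with exactly 1 entry among RefSeq promoters. Each runs 5′ to 3′ on the gene's own strand from 250 bases before to 50 bases after the RefSeq start, in build GRCh38.p14. The peaks themselves are placed in hg19, so these windows were not laid over the peaks. Capitals mark matches, on either strand, to TATAAA (the TATA box), CCAAT (the CCAAT box), GGGCGG (the GC box), CCGGAAG (an ETS core) and CACGTG (an E-box). No motif contains another, and a base in overlapping matches is capitalised once.
LINC00910, highest in both lists, chr17:43388849-43389148, minus strand: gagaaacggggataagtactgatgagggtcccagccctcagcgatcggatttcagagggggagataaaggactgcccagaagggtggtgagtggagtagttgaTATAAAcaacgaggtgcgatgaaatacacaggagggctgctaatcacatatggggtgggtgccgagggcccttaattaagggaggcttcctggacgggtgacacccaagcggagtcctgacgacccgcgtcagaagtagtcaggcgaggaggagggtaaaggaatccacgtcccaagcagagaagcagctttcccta
KMT2E-AS1, highest shared antisense gene, chr7:105014092-105014391, minus strand: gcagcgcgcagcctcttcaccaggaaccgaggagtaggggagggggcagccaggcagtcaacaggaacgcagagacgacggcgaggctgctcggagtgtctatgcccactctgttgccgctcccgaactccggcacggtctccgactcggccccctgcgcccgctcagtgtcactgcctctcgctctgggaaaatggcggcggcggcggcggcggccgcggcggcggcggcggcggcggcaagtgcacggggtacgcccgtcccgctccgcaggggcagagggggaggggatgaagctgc
LINC00476, highest stromal-only LINC gene, chr9:95875928-95876227, minus strand: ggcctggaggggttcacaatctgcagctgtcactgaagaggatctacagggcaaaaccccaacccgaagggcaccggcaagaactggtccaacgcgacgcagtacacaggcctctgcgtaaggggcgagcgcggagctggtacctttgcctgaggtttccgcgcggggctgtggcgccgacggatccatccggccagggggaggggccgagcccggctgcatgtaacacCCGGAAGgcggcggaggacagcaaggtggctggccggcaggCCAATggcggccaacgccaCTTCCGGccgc
GNG12-AS1, highest stromal-only antisense gene, chr1:67832038-67832337, plus strand: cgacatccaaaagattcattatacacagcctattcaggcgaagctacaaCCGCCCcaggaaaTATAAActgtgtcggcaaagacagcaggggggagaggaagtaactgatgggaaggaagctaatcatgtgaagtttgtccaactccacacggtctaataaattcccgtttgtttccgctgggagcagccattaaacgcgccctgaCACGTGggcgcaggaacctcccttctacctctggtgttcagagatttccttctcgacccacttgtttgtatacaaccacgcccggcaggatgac
C1RL-AS1, highest astromal-only antisense gene, chr12:7108058-7108357, plus strand: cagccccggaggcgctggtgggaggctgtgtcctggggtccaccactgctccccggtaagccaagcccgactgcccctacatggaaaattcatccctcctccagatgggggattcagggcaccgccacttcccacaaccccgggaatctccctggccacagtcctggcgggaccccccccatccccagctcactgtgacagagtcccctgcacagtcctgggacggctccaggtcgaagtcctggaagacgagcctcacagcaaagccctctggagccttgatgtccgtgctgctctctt
CRNDE, level with CASC11 and MIR760 as highest astromal-only gene outside the LINC and antisense classes, chr16:54928837-54929136, minus strand: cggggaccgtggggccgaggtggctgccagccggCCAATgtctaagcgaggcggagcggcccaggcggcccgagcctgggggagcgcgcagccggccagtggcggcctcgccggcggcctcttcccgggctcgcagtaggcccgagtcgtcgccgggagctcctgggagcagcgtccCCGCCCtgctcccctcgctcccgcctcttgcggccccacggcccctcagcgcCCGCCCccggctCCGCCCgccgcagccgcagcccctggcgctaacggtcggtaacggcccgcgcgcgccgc
The 6 windows differ in make-up. CRNDE is 80% G and C with 44 CpG pairs and 3 GC boxes, while GNG12-AS1 is 50.3% G and C with 14 CpG pairs and a TATA box. C1RL-AS1 and KMT2E-AS1 hold no match to the motifs. A match here describes letters only.

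Most non-coding RNA promoters with H3K9ac were listed in stromal spheroids, with or without an astromal partner. Of 798 genes, 445 had a promoter peak in the stromal list only (55.8%, 52.2 to 59.2), 324 in both lists (40.6%, 37.2 to 44.1) and 29 in the astromal list only (3.63%, 2.45 to 5.18). Over all 10822 promoter genes the shares were 51.4% stromal only, 47.4% both and 1.22% astromal only, and over 9855 protein-coding genes 51.0%, 48.0% and 0.964%. The astromal-only share was higher than the background under these names. It was 2.24% (1.03 to 4.21) among genes for which no coding start was found within 1 kb. That interval holds the 1.22% of all promoter genes, which were not filtered in this way, but not the 0.964% of protein-coding genes. Where a stromal peak of any name within 1 kb counted, 9 of the 29 genes were left.

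The 3 name classes split alike. Of 92 LINC genes 49 were stromal only, 41 in both lists and 2 astromal only. Of 282 antisense genes 157 were stromal only, 117 in both and 8 astromal only. Of the 424 others 239 were stromal only, 166 in both and 19 astromal only. Within the others, LOC-numbered genes were split 118, 71 and 7, miRNA genes and miRNA hosts 55, 40 and 7, and snoRNA and small Cajal body RNA genes 13, 9 and 1. The snRNA genes, with transcripts of RNA polymerase III such as RMRP, RPPH1 and the vault RNAs, were split 6, 7 and 0.

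**Figure D1:**
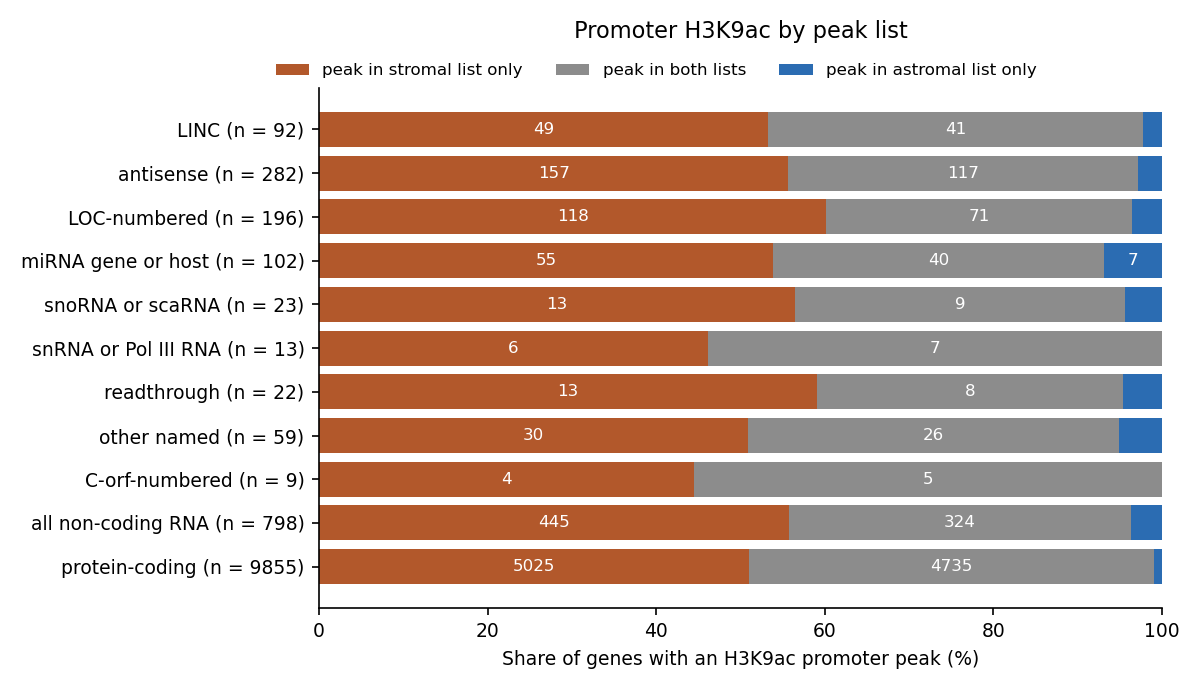
Share of genes (%) with an H3K9ac promoter peak in the stromal list only, in both lists or in the astromal list only, for each class of non-coding RNA gene and for protein-coding genes, with gene counts inside the bars. Stromal-only genes make up 55.8% of the 798 non-coding RNA genes and 51.0% of the protein-coding genes, and every class has more stromal-only than astromal-only genes.

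Stromal-only promoters were weaker peaks than shared ones. The highest peak had a median of 23.8 normalised tags (18 tags) at the 445 stromal-only genes, against 39.6 (30 tags) in the stromal list at the 324 shared genes. Scaled by depth and by the median shift of shared promoters, 62 of the 445 (13.9%) would be placed at 9 or more astromal tags, the median of the astromal list; among stromal-only coding genes the share was 14.2%. 

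Levels per gene, summed over promoter peaks, spanned 11.9 to 289.3 normalised tags (median 31.7) at 769 stromal genes and 12.7 to 170.8 (median 22.9) at 353 astromal genes. LINC00910 stood at the top of both. Its peak at chr17:41466073-41466283 in hg19, centred 88 bp downstream of the start, was the highest of all H3K9ac peaks of any gene in both lists, with 289.3 stromal and 170.8 astromal normalised tags (219 and 67 tags). H3K27ac near it stood at 69.8 stromal and 82.5 astromal normalised tags. In the order of RefSeq genes, 7 of the 8 genes just before LINC00910 are snRNA genes, and the pseudogene RNU2-4P follows it closely. Such repeats share reads, so its level is uncertain, and their part in it was not tested.

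The next 4 genes by stromal level spanned 2 LINC or LOC genes, an antisense gene and an snRNA gene. LOC100132356 had 147.9 stromal and 53.5 astromal normalised tags, and LINC01003 had 125.5 and 17.8. KMT2E-AS1, opposite the gene of the chromatin protein KMT2E, had 117.6 stromal and 112.2 astromal normalised tags, the astromal value from 2 peaks against 1 stromal peak. RNU6ATAC, the U6atac RNA of the minor spliceosome, had 114.9 and 45.8. All 5 were listed in both conditions with the higher value in the stromal library, as were 93.4% of all promoters in both lists. Relative to the median ratio of those promoters (log2, centred on it), KMT2E-AS1 stood at −0.82 (−1.36 to −0.27) and LINC00910 at −0.13 (−0.53 to 0.29), below it, and the other 3 above it.

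**Figure D2:**
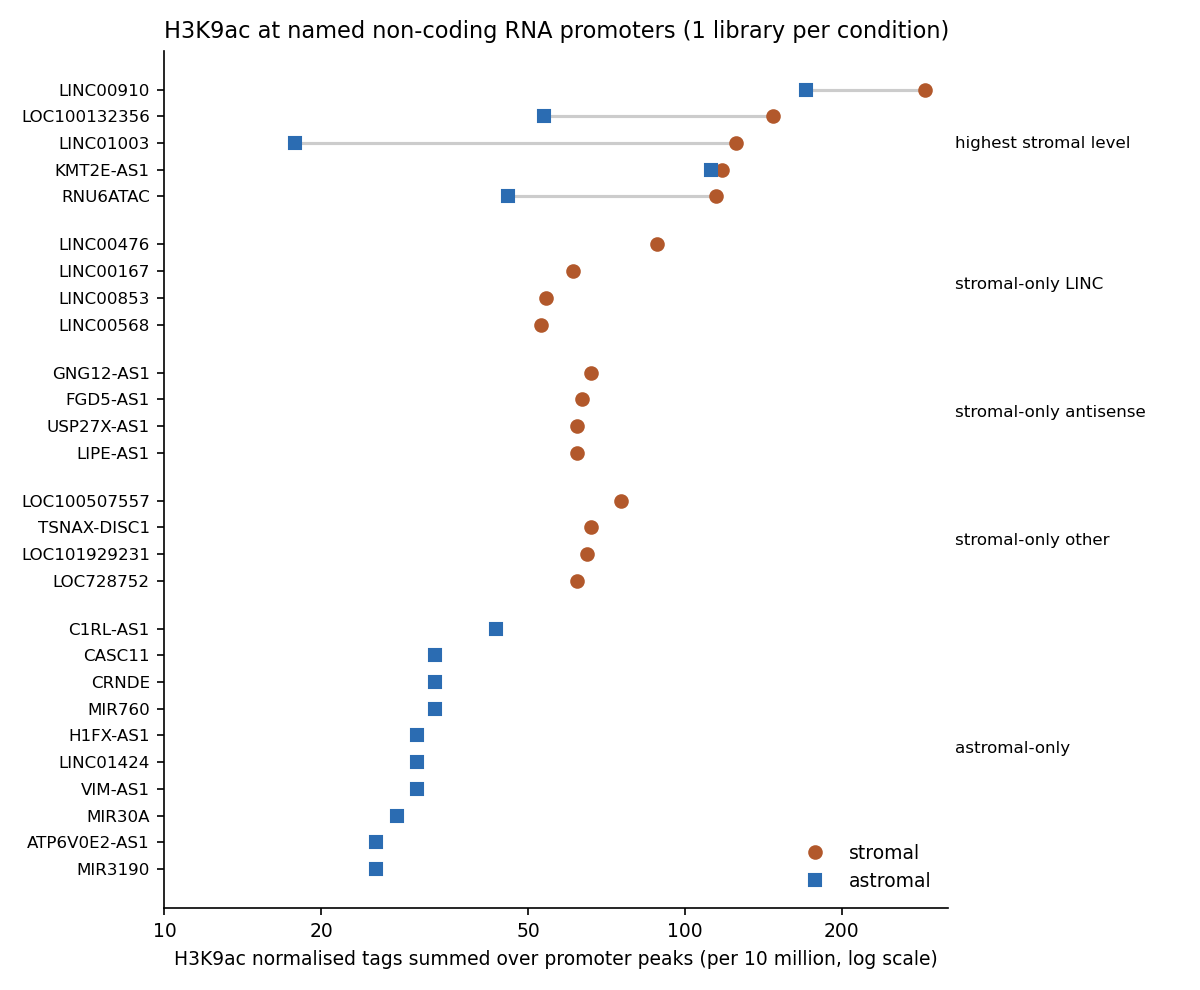
H3K9ac normalised tags per 10000000 (log scale) summed over promoter peaks in the stromal (circle) and astromal (square) library for the 5 members with the highest stromal level, the 4 highest stromal-only members of each class and the 10 highest astromal-only members. A missing symbol means no promoter peak under that name in that list; the astromal-only genes lie between 25.5 and 43.3, below the stromal-only genes shown, which lie between 52.8 and 88.5.

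Several LINC genes and antisense genes with strong stromal peaks had no astromal peak under their names. LINC00476, named ERCC6L2-AS1 in RefSeq, had 88.5 normalised tags from 2 stromal peaks, and an astromal peak of 33.1 named for the coding gene ERCC6L2 lay 126 bp from the higher of them. LINC00167 had 60.8 from 2 equal stromal peaks, and an astromal peak of 30.6 named for PRDM10 lay 182 bp from 1 of them. LINC00853 had 54.1 and LINC00568 52.8, with no astromal peak within 2 kb of their highest peaks. Among antisense genes GNG12-AS1 had 66.1, FGD5-AS1 63.5, and USP27X-AS1 and LIPE-AS1 62.1 each. The other stromal-only genes with high values were LOC100507557 at 75.3, whose name covers 2 loci, the readthrough TSNAX-DISC1 at 66, LOC101929231 at 64.7 and LOC728752 at 62.1.

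H3K27ac was listed in both conditions at these genes. At LINC00476 it stood at 46.5 stromal and 52 astromal normalised tags, and at LINC00167 at 55.9 and 60.2. GNG12-AS1 had 23.26 stromal and 14.1 astromal, FGD5-AS1 36.12 and 42.38, and LIPE-AS1 19.24 and 32.69. All 12 genes named as stromal only for H3K9ac had H3K27ac within 2 kb in both conditions, and they are the strongest of their classes; over all 445 stromal-only genes the number was 241 (54.2%), and over stromal-only coding genes the share was 47.7%. Of the 12, LINC00476, LINC00167, LOC101929231 and LOC728752 had an astromal H3K9ac peak of another name within 1 kb.

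Peaks carry only the name of their nearest gene, so the same promoter can be listed under different names. Of the 445 stromal-only genes, 89 (20%) had an astromal peak within 1 kb of theirs, 86 of them with a peak under another gene's name, and 329 had none within 2 kb. LOC728752, with 62.1 stromal normalised tags, lay 34 bp from an astromal peak of 28 named for ZNF566, and LOC101929231 lay 132 bp from one of 28 named for MMADHC. IPO9-AS1, with 54.2, lay 88 bp from an astromal peak of 43.3 named for IPO9, its coding partner. Where such peaks count, 356 genes stay stromal only, 433 are in both lists and 9 are astromal only.

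Of the 29 astromal-only genes, 20 (69%) had a stromal peak within 1 kb, 18 of them under another name, and 5 had none within 2 kb. C1RL-AS1 had no stromal peak and 43.3 astromal normalised tags from 2 peaks, and a stromal peak of 81.9 named for C1RL lay 88 bp from the higher of them. CRNDE, a long RNA first named for its level in colorectal tumours, had no stromal peak of its name and 33.1 astromal normalised tags, and a stromal peak of 52.8 named for IRX5 lay 290 bp away. VIM-AS1, opposite the vimentin gene, had 30.6 astromal normalised tags, and a stromal peak of 51.5 named for VIM lay 905 bp away. H1FX-AS1 had 30.6 astromal normalised tags, while its stromal peak of 52.8 lay at −1009 bp, just past the distance limit.

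Neighbouring coding genes also named the nearest stromal peak at LINC01424, ATP6V0E2-AS1 and CASC11, as they did at most astromal-only genes. LINC01424 had 30.6 astromal normalised tags with a stromal peak of 30.4 for UBE2G2 at 480 bp. ATP6V0E2-AS1 had 25.5 with a stromal peak of 39.6 for ATP6V0E2 at 243 bp. CASC11 had 33.1, and the nearest stromal peak lay 1280 bp away. The last distance is past 1 kb.

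MIR30A stood apart from these. It had no stromal peak and 28 astromal normalised tags (11 tags) in a peak at chr6:72113173-72113373 in hg19, 51 bp downstream of the annotated start of its precursor. The nearest stromal H3K9ac peak was 40448 bp away, and no H3K27ac peak of either condition lay within 2 kb. MIR760 had 33.1 astromal normalised tags, with a stromal peak of 51.5 for BCAR3 at 863 bp. MIR3190 had 25.5, with the nearest stromal peak 3306 bp away. For a miRNA gene the lists take the start of the precursor, which is cut from a longer transcript, so a peak there need not mark the start of transcription.

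The mature RNAs of the 3 strongest astromal-only miRNA genes, and of MIR5091, a miRNA gene with a lower call by both measures described further on, are given as RefSeq lists them, with the seed (bases 2 to 8, which pair with target messages) in capitals.
hsa-miR-760: cGGCUCUGggucugugggga
hsa-miR-30a-5p: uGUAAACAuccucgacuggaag
hsa-miR-30a-3p: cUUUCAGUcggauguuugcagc
hsa-miR-3190-3p: uGUGGAAGguagacggccagaga
hsa-miR-5091: aCGGAGACgacaagacugugcug
These 5 RNAs have 5 different seeds. Of the 102 miRNA genes and hosts, 89 were matched to 124 mature RNAs with 123 distinct seeds. Among the matched genes, the only seed found in more than 1 gene was that of MIR4505 and MIR5787. Unmatched members, such as the host MIR497HG, were not compared, so their seeds could be shared with others.

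A list of 45 names of well-studied non-coding RNAs was read for members, and 21 had a promoter peak: 11 stromal only, 8 in both lists and 2 astromal only. Among those in both lists, LINC00657, now called NORAD and known to bind Pumilio proteins, had 63.4 stromal and 40.8 astromal normalised tags. TERC, the RNA template of telomerase, had 50.2 and 33.1. LINC-PINT, a target of p53, had 50.2 and 28, and RPPH1, the RNA of RNase P, had 43.6 and 22.9. The stromal value was the higher in each, as at most shared promoters; after centring, LINC00657 (−0.25), TERC (−0.29) and LINC-PINT (−0.05) lay below 0 and RPPH1 (0.04) above it.

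The remaining shared genes of that list were 4. JPX, of the X-inactivation centre, had 38.3 stromal and 35.7 astromal normalised tags. OIP5-AS1 had 51.5 and 17.8, DLEU2, the host of miRNAs lost in chronic lymphocytic leukaemia, had 50.2 and 20.4, and ZEB1-AS1, opposite a transcription factor of epithelial to mesenchymal change, had 38.3 and 20.4. After centring, no interval of these 8 genes left out 0; the log2 differences ran from −0.79 at JPX to 0.64 at OIP5-AS1.

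TUG1 had the highest stromal-only value of the list, 51.6 normalised tags from 3 peaks, with H3K27ac at 8.14 in the stromal list and none listed in the astromal one. FTX had 37 and MIR210HG, the host of the hypoxia miRNA miR-210, 31.7, as did DLEU1 and MCM3AP-AS1. KCNQ1OT1, the antisense RNA of an imprinted domain, had 30.4, UCA1 19.8, TP53TG1 and TINCR 15.9 each, and RMRP, the RNA of RNase MRP, 14.5. LINC00152 had the lowest value, 11.9 (9 tags). Past the distance limit, the astromal list held a peak of 22.9 named for FTX, at 1714 bp from its start. It also held one of 33.1 named for UCA1, at 8031 bp. The 2 astromal-only genes were CRNDE and SLC25A21-AS1, the second at 17.8 astromal normalised tags. Of the 24 names without a promoter peak, 22 named no peak at all, among them NEAT1, H19, MEG3 and HOTAIR. The 22 include CYTOR and NORAD, newer names of LINC00152 and LINC00657, whose peaks are given here under the older names. MALAT1 named 2 peaks in each list, the nearest at −20415 bp in the stromal and −20344 bp in the astromal list.

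Where a promoter was listed in both conditions, non-coding RNA genes had a slightly smaller stromal over astromal ratio than promoters at large. All 5129 shared promoters had a median stromal over astromal log2 ratio of 0.89 (1.85-fold), and summed levels were centred on it. Ratios of highest peaks were centred on their own median, 0.68. The 324 shared non-coding RNA promoters had a median of −0.20 after centring (quartiles −0.52 and 0.17) and 0.69 before it, and the stromal value was the higher at 295 (91.0%), against 93.4% of all shared promoters. By the highest peak alone the centred median was −0.044. More than 1 peak was less common here: 14.8% of the shared non-coding RNA genes had more stromal than astromal promoter peaks, against 36.9% of all shared genes. The part of peak number in the ratios was not tested.

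A centred change of at least 2-fold whose interval left out 0 was called. Calls went to 6 genes higher and 9 lower of 324, beside 4.11% higher and 2.85% lower over all shared promoters, so the higher calls lie below the background share and the lower calls near it. The 6 higher genes were LINC01003 with 125.5 stromal and 17.8 astromal normalised tags (log2 1.93, 0.83 to 3.28), RNU6-2, LOC102546298, LOC100130987, TRIM52-AS1 and LOC441242. All 6 had more stromal than astromal peaks, and none was called by its highest peak. RNU6-2, a U6 snRNA gene with near-identical copies, named peaks at 3 loci, and LOC441242 at 2.

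Among the 9 lower genes, 5 had more astromal peaks. WWTR1-AS1 had 42.3 stromal normalised tags in 1 peak and 58.6 astromal in 2 (log2 −1.36, −2.18 to −0.52), and SNORA76C, a snoRNA gene, had 46.2 and 58.6 likewise (log2 −1.23, −2.03 to −0.41). LINC01011, LOC100133985 and MIR4757 were the others with an extra astromal peak. None of these 5 was called by its highest peak. By that measure WWTR1-AS1 stood at −0.21, SNORA76C at −0.41, LINC01011 and MIR4757 at 0.11 each and LOC100133985 at −0.12. With a distance limit of 2500 bp, which takes in the stromal LOC100133985 peak at 1009 bp, LINC01011 stood at 0.28 and LOC100133985 at −0.16. WWTR1-AS1 (−1.40), SNORA76C (−1.27) and MIR4757 (−1.05) kept a call with that limit. The remaining 4, each with 1 peak per list, were MIR5091, LINC01521, PITPNA-AS1 and C21orf67. For these the summed and highest-peak measures use the same tags and differ only in the centre. By the highest peak LINC01521 (−0.91), PITPNA-AS1 (−0.84) and C21orf67 (−0.81) were not called. MIR5091 had 23.8 stromal and 33.1 astromal normalised tags (18 and 13 tags; log2 −1.37, −2.48 to −0.22). Of the 6 highest ratios with at least 10 tags in each library none was called; centred on the genes with that many tags instead, FLJ13224 (1.03, 0.11 to 2.10) and LINC00467 (1.01, 0.08 to 2.08) were. FLJ13224 led them with 93.8 stromal and 28 astromal normalised tags (log2 0.85), ahead of LINC00467, LOC100507642, HCG11, ENO1-AS1 and LOC100132356. SMIM2-AS1 and UXT-AS1 were among the 6 lowest without a call. MIR5091 was the one lower gene also called by its highest peak, where 1 gene was called higher, LOC100128568, and the background was 0.195% higher and 0.643% lower.

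**Figure D3:**
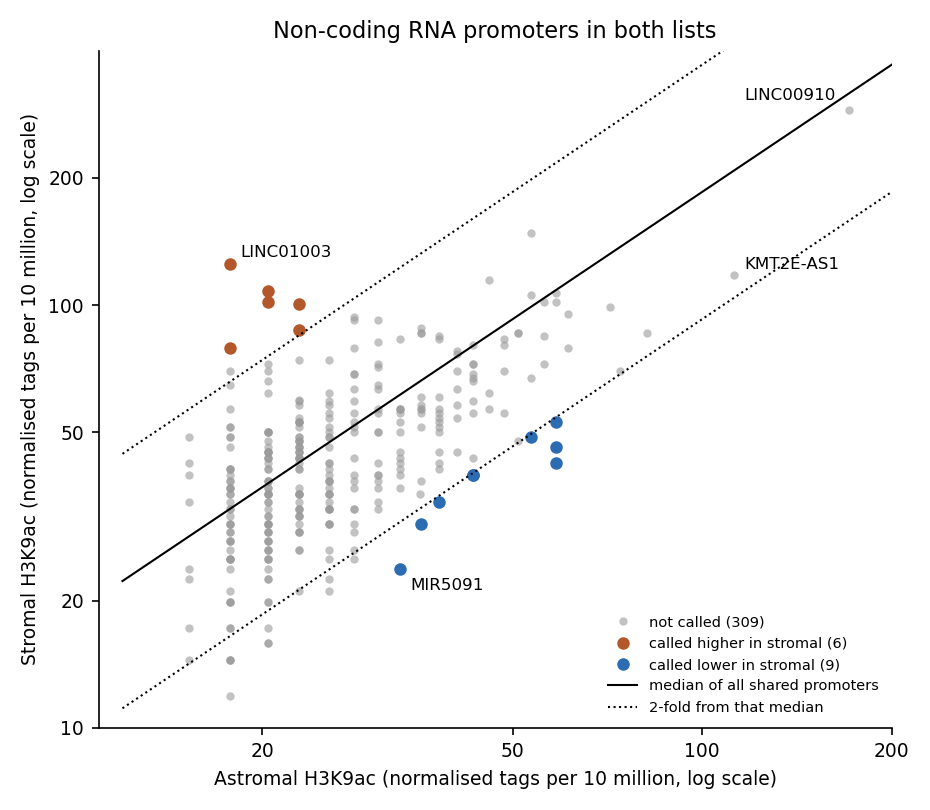
Stromal against astromal H3K9ac (normalised tags per 10000000, log scales) at the 324 non-coding RNA promoters in both lists; the solid line is the median ratio of all shared promoters and the dotted lines lie 2-fold from it. Points form columns because astromal values rest on few tags, and 6 genes lie above and 9 below with a call.

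Peaks sat mostly just downstream of the annotated start. The median distance of the peak centre was 160 bp in the stromal and 145 bp in the astromal list, against 186 and 193 bp at coding promoters, and 31.8% and 30.6% of peaks lay upstream. The bin from 100 to 200 bp held 21.2% of stromal and 21.6% of astromal non-coding RNA peaks, and 13.5% and 14.5% of coding ones. Members at the edge of the distance limit were MIR193A at −999 bp with 18.5 stromal normalised tags and MIR92B at −995 bp with 37; just outside lay LOC100133985 at 1009 bp with 42.3 stromal normalised tags, whose promoter also had a peak inside the limit.

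Peaks of snoRNA and snRNA genes lay mostly upstream. Upstream peaks made up 72.7% (49.8 to 89.3) of 22 stromal peaks of snoRNA genes and 68.4% (43.4 to 87.4) of 19 stromal peaks of snRNA and polymerase III genes. In the astromal list these were 63.6% of 11 and 87.5% of 8. Peaks of miRNA genes lay between, with 43.4% of 106 stromal and 47.1% of 51 astromal peaks upstream and medians of 96.5 and 68 bp downstream. SCARNA2 had 72.7 stromal and 43.3 astromal normalised tags, SNORD12C had 44.9 and 20.4, and VTRNA1-1, a vault RNA gene, had 44.9 and 20.4. RNU11 and RNU12, of the minor spliceosome, were stromal only at 41 and 14.5.

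**Figure D4:**
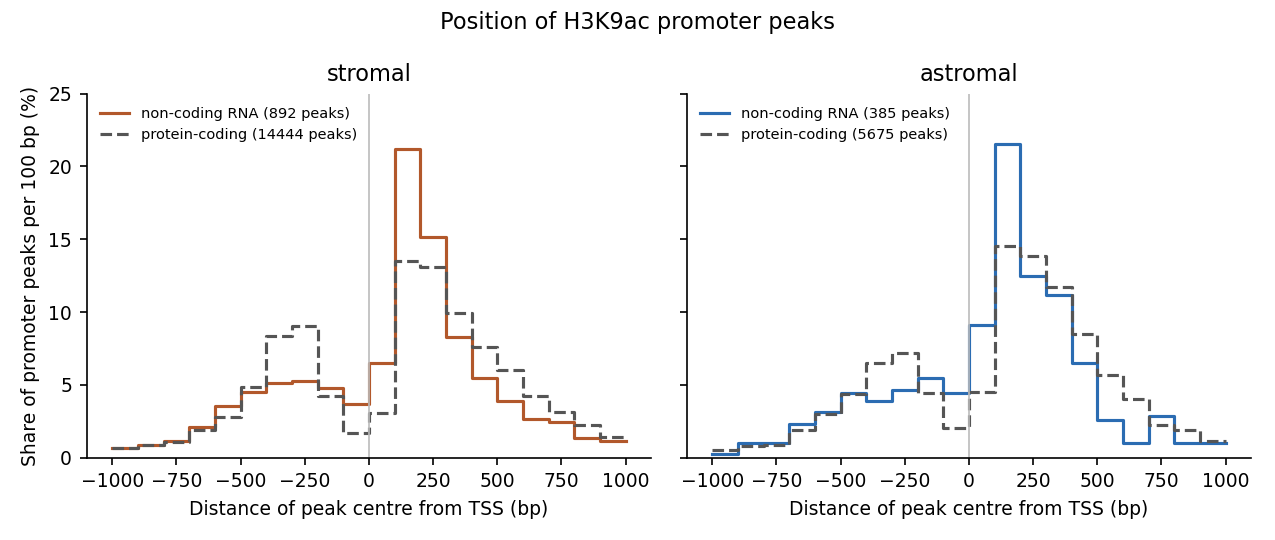
Share of promoter peaks (%) in 100 bp bins of distance between peak centre and TSS, for non-coding RNA (solid) and protein-coding genes (dashed), stromal list on the left and astromal list on the right. Both lists have their highest non-coding RNA bin between 100 and 200 bp downstream, at 21.2% and 21.6%.

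Many of these promoters were shared with coding genes. Coding start sites were rebuilt from the transcripts and distances the lists give. Only starts of coding transcripts that named an H3K9ac peak could be found in this way. A rebuilt start lay within 1 kb of the highest peak at 266 of 798 non-coding RNA genes (33.3%). At 402 none was found and 130 could not be settled. The 402 include genes such as FGD5-AS1 and ZEB1-AS1, whose highest peak is annotated at a coding promoter. The share with a rebuilt start was 44.3% of antisense genes (38.4 to 50.3) and 9.78% of LINC genes (4.57 to 17.8). RefSeq start sites gave a head-to-head coding neighbour within 1 kb for 11 of 75 LINC genes (14.7%) and 87 of 159 LOC-numbered genes (54.7%).

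Genes beside a rebuilt coding start and genes where none was found differed in 2 measures. The split rests on the same H3K9ac lists, since a rebuilt start needs a coding transcript that named a peak. The differences are therefore not independent of how the 2 sets were drawn. H3K27ac of either condition lay within 2 kb at 246 of 266 (92.5%, 88.6 to 95.3) beside a coding start, and at 285 of 402 (70.9%, 66.2 to 75.3) without one. Astromal-only H3K9ac listing was 7.14% (4.35 to 10.9) beside a coding start and 2.24% (1.03 to 4.21) without. The highest stromal peak had medians of 33 and 29.1 normalised tags, and the highest astromal peak 22.9 in both sets.

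H3K27ac, acetylation of lysine 27, accompanied most of these peaks at the rate of any promoter. An H3K27ac peak of the same condition lay within 2 kb of 71.7% of stromal H3K9ac peaks (640 of 892, 68.7 to 74.7) and 89.4% of astromal ones (344 of 385, 85.8 to 92.2). The background over all promoter peaks was 72.8% stromal and 90.6% astromal. The share followed peak strength: in the stromal list it was 33.3% under 10 tags, 55.3% at 10 to 19, 81.9% at 20 to 39 and 95.7% at 40 or more. In the astromal list it was 86.4% under 10 tags and 92.7% at 10 to 19. The stromal share below 20 tags was thus lower than the astromal one at the same tag counts. Equal counts are not equal levels, since 1 tag is worth 1.32 normalised tags in the stromal list and 2.55 in the astromal list.

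The classes were close to each other. Stromal H3K9ac peaks had H3K27ac at 67.5% of LINC, 72.3% of antisense and 72.4% of other peaks, and astromal ones at 88.2%, 92.4% and 87.6%. Peaks of snRNA and polymerase III genes reached 18 of 19 in the stromal and 8 of 8 in the astromal list. Overlap by at least 1 bp with a peak of the other H3K9ac list was found for 34.0% of stromal peaks (background 30.5%) and 77.7% of astromal peaks (background 77.2%).

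**Figure D5:**
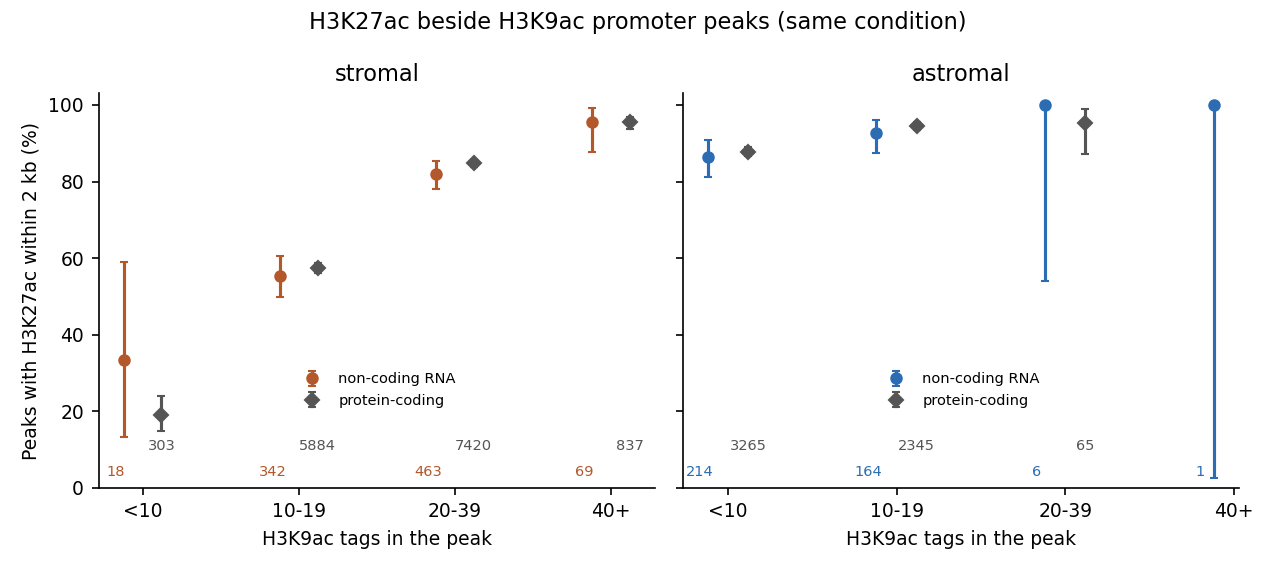
Share (%) of H3K9ac promoter peaks with an H3K27ac peak of the same condition within 2 kb, by number of H3K9ac tags in the peak, for non-coding RNA (circles) and protein-coding genes (diamonds), with exact 95% intervals and the number of peaks at the foot. In the stromal list the non-coding RNA share climbs through 33.3%, 55.3% and 81.9% to 95.7%, near the coding share in each bin with 10 or more tags.

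Per gene, H3K27ac was listed near 530 of 798 promoters in both conditions (66.4%), near 38 in stromal only, near 71 in astromal only and near 159 in neither. The background shares were 65.6%, 5.24%, 7.81% and 21.3%. Of the 445 genes with stromal-only H3K9ac, 288 (64.7%, 60.1 to 69.2) had H3K27ac in the astromal list, against 57.1% of stromal-only coding genes. H3K27ac was thus listed in astromal spheroids at most promoters whose H3K9ac peak was listed in stromal ones alone.

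Where H3K27ac was listed in both conditions, non-coding RNA genes had nearly the same stromal over astromal ratio as promoters at large. The 530 such genes had a median log2 ratio of −0.20, with the stromal value the higher at 191 (36.0%). All 7104 genes of any type had −0.18, with the stromal value the higher at 36.1%. Summed H3K27ac ratios were centred on that median, and highest-peak ratios on their own, −0.21. The centred median at the 530 was −0.021, with 25 calls higher and 38 lower beside a background of 5.24% and 6.26%. By the highest peak there were 0 higher and 4 lower (background 0.408% and 0.76%): MIR4651 (log2 −1.42), ST3GAL4-AS1 (−1.21), TOLLIP-AS1 (−1.20) and SRRM2-AS1 (−1.01). TOLLIP-AS1 had a single H3K27ac peak in each list, with 8.14 stromal and 21.6 astromal normalised tags. MIR4651 had summed levels of 13.38 and 31.26. All 25 higher genes had more stromal H3K27ac peaks, and 36 of the 38 lower genes more astromal ones.

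Among well-studied genes, DLEU2 had 26.18 stromal and 8.18 astromal normalised tags of H3K27ac (log2 1.86, 0.88 to 2.96) and LINC-PINT 56.4 and 24.5 (log2 1.38, 0.80 to 2.00), each with 3 stromal peaks and 1 astromal peak. CASC11 had 46 and 24.5 (log2 1.09, 0.48 to 1.72). Lower in the stromal library were ATP6V0E2-AS1 with 14 and 40.2 (log2 −1.34, −2.10 to −0.63), USP27X-AS1 with 9.89 and 27.5 (log2 −1.30, −2.22 to −0.43) and LINC00568 with 6.98 and 19.32 (log2 −1.29, −2.41 to −0.25). The last 2 had H3K9ac in the stromal list only. By the highest H3K27ac peak none of these 6 was called: DLEU2 stood at 0.85, LINC-PINT at 0.06, CASC11 at 0.14, ATP6V0E2-AS1 at −0.31, USP27X-AS1 at −0.38 and LINC00568 at −0.37.

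Sequence could be read for classes in which at least 80% of genes have a RefSeq promoter. This held for LINC genes (75 of 92), LOC-numbered genes (159 of 196) and readthroughs (21 of 22); the check is void for antisense genes (224 of 282), for miRNA, snoRNA and snRNA genes, and for all members together (530 of 798). LINC promoters had a median of 64% G and C and a CpG ratio, observed over expected, of 0.722, and LOC-numbered promoters 66.3% and 0.863. All 27305 promoters of the table had 58.3% and 0.58, and all lncRNA promoters 50% and 0.283, so these classes lay above the general lncRNA promoter on both measures. The members were chosen by an H3K9ac peak and these backgrounds were not, and the part of that choice in the differences was not tested. Protein-coding promoters had 62.7% and 0.763. LINC promoters thus lay near the coding ones, slightly above in G and C and below in CpG ratio, and LOC-numbered promoters lay above them.

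Motifs were counted on both strands, beside the same backgrounds, which were not limited to promoters with H3K9ac. The GC box GGGCGG was in 61.3% of LINC and 70.4% of LOC-numbered promoters, against 44.6% of all promoters and 58.5% of protein-coding ones. The ETS core CCGGAAG was in 18.7% and 25.2%, against 10.7% of all and 14.2% of protein-coding promoters. TATAAA was in 10.7% and 4.40%, against 12% of all and 9.63% of protein-coding promoters. CCAAT was in 38.7% and 39.6%, against 35.7% and 36.4%. The palindromic NRF1 motif was in 0 and 6 promoters (0% and 3.77%, against 1.36% of all and 1.75% of protein-coding ones). TGACGTCA, the cyclic AMP element, was in 4 and 7 (5.33% and 4.40%, against 1.98% and 2.59%). CACGTG was in 8 and 12 (10.7% and 7.55%, against 7.43% and 8.88%). Base composition and motifs were not read against the conditions, since fewer than 80% of the stromal-only genes of either class have an entry.

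Not all of the genes are non-coding by present annotation. Of 796 genes matched in RefSeq by gene ID, 17 are now typed protein-coding, 13 of them stromal only and 4 in both lists. They include LINC00493, now SMIM26, with 58.1 stromal and 25.5 astromal normalised tags, LINC00998, now SMIM30, with 41 stromal, and RPA3OS, now UMAD1, with 85.9 stromal and 81.6 astromal. TUG1 and TINCR are among the 17. Without them the split was 432 stromal only, 320 in both and 29 astromal only.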

How the data were processed

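The submitters' processing notes name CASAVA 1.8.2, Bowtie, HOMER and the hg19 build. H3K27ac peaks were called per library against input with HOMER at an FDR of 0.001, at least 4-fold over input and over the local 10000 bp, and a Poisson p-value of 0.0001, per the file headers; H3K9ac calling thresholds were not given in the sources used here. The 4 input libraries are not analysed here. The main signal is the deposited normalised tags per peak. H3K9ac values rise in even steps, all within 0.1 tag of whole tags, which gave estimated tags and depth. Deposited tag counts and the deposited ratio (fold) over input described H3K27ac peaks, and the authors' distance to TSS (other annotation) placed peaks.

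Peaks were joined by gene name, centre distance or overlap with Python 3.11.15, pandas 2.3.3 and scipy 1.17.1. Overlap, nearest-peak and call code was tested on simulated data. Shares have exact Clopper-Pearson intervals and tag ratios exact conditional binomial intervals at 95%, of counting error only. Named genes are the 4 highest stromal-only genes per class, the 10 highest astromal-only genes, the 6 highest and 6 lowest centred ratios among shared genes of 10 or more tags per library, the 5 highest stromal levels, and members of the list of 45; genes named outside it were chosen after their values were seen. Sequences, names and gene types come from RefSeq (GRCh38.p14). Members and lists were chosen with earlier results of these data known.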

Additional observations from a re-analysis of the deposited data

How the results depend on the processing

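With 1 library per mark and condition, differences between conditions cannot be told apart from differences between libraries, and astromal H3K9ac rests on few tags. No paired analysis was possible because each mark and condition has 1 library. Leaving out a replicate was likewise impossible. The causes of the changes listed here were not tested, apart from what an alternative's own construction fixes, such as fewer genes or peaks.

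The numbers of genes stromal only, in both lists and astromal only were 225, 98 and 58 with a TSS window of 200 bp, and astromal-only genes numbered 46 with 500 bp. With peaks of at least 10 tags they were 604, 151 and 11, and with at least 20 tags 470, 7 and 0. Astromal-only genes numbered 9 where a peak of any name within 1000 bp counts. Among genes without a rebuilt coding start within 1000 bp, an alternative chosen after seeing the data like the 2 that leave out coding-typed and multi-locus names, the numbers were 218, 175 and 9. Overlap between lists was 24.3% of stromal and 55.8% of astromal peaks when 50% of either peak must overlap, and 42.2% and 94.3% with centres within 500 bp.

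The median log2 ratio at shared promoters was −0.044 by the highest peak, 0.69 without centring and −0.095 with 200 bp. Calls higher and lower numbered 1 and 1 by the highest peak, 70 and 0 without centring, 2 and 3 with at least 10 tags in both libraries, 1 and 0 with 200 bp and 2 and 4 with 500 bp. Of 23 named ratios, some changed sign: by the highest peak ENO1-AS1 (−0.13), LINC01011 (0.11), LOC100132356 (−0.022), MIR4757 (0.11) and RNU6-2 (−0.045); with 200 bp LOC100133985 (0.59), LOC441242 (−0.32) and RNU6-2 (−0.71); with 500 bp HCG11 (−0.41) and LOC100133985 (0.48); and with 2500 bp LINC01011 (0.28) and LOC100132356 (−0.28).

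H3K27ac beside stromal peaks was 66.1% within 1000 bp, 47.6% with H3K27ac peaks of at least 20 tags, 80.5% with either condition's peaks and 83.6% at H3K9ac peaks of at least 20 tags. Beside astromal peaks these were 84.9%, 62.1%, 92.7% and 100%, and 93.0% at H3K9ac peaks of at least 10 tags.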
